A study of Mus musculus with 6 samples.

Results

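The genes described are 9 transcription factor genes linked to lymphocyte quiescence, the Kruppel-like factors Klf2, Klf3, Klf4, Klf6 and Klf13 and the forkhead factors Foxo1, Foxo3, Foxp1 and Foxp4. They were found by gene name and form 9 of the 20433 gene names that could be read. All 9 are among the 9866 genes compared, those averaging 1 FPKM or more over both genotypes (FPKM counts fragments relative to transcript length and to the mapped total of the library). RNA of follicular B cells, the main recirculating B cells of the spleen, was sequenced from C57BL/6 mice of 2 genotypes, CD23Cre+Myh9wt/fl and CD23Cre+Myh9fl/fl, with 3 samples each. In both, Cre is driven from the CD23 promoter, which becomes active in transitional B cells, and removes exon 3 of Myh9, the myosin IIa heavy chain gene, from 1 allele (wt/fl) or from both (fl/fl). The comparison group therefore carries Cre and is haploinsufficient, not wild-type. The labels give neither age nor sex. Each genotype has 1 deposited FPKM per entry, pooled over its 3 samples, which leaves the variation among samples unknown, and every difference below is a description without a test. An entry collects those transcripts that share 1 coding sequence, and the level of a gene is the sum over its entries. Log2 ratios are of fl/fl over wt/fl after adding 1 FPKM to each level.

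KLF factors bind CACCC and GC-rich boxes in promoters through C-terminal zinc fingers and can activate or repress. KLF2 in particular keeps resting lymphocytes out of the cell cycle and maintains the receptors with which they recirculate. FOXO factors are held in the cytoplasm when PI3K and AKT are active, as after antigen receptor stimulation, and in resting B cells they enter the nucleus and turn on genes for arrest, homing and survival control. FOXP1 and FOXP4 are forkhead repressors that act as dimers, and FOXP1 is required for early B cell development and restrains differentiation of mature B cells.

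All 9 genes kept their order of abundance between the genotypes, from Klf2 at the top to Klf4 at the bottom. Of the 9, 8 were at a lower level in fl/fl and 1, Klf6, was higher by 0.548%. None of the 9 was past 1.5-fold in either direction, beside 2.32% of the 9866 genes compared. Lower levels of any size were seen in 49.5% of all genes compared. Summed, the 5 KLF genes were at 287.8 FPKM in wt/fl against 255.7 in fl/fl, a difference of −11.2%, and the 4 forkhead genes at 270.9 and 241.5 FPKM, a difference of −10.9%. Log2 ratios of the 9 ran from −0.30 to 0.0077 with a median of −0.15, against a median of 0.0026 for all genes compared. Neutrophil markers differed between the same pooled values, with a sum of 387 against 73.3 FPKM, and their part in these differences was not tested.

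**Figure D1:**
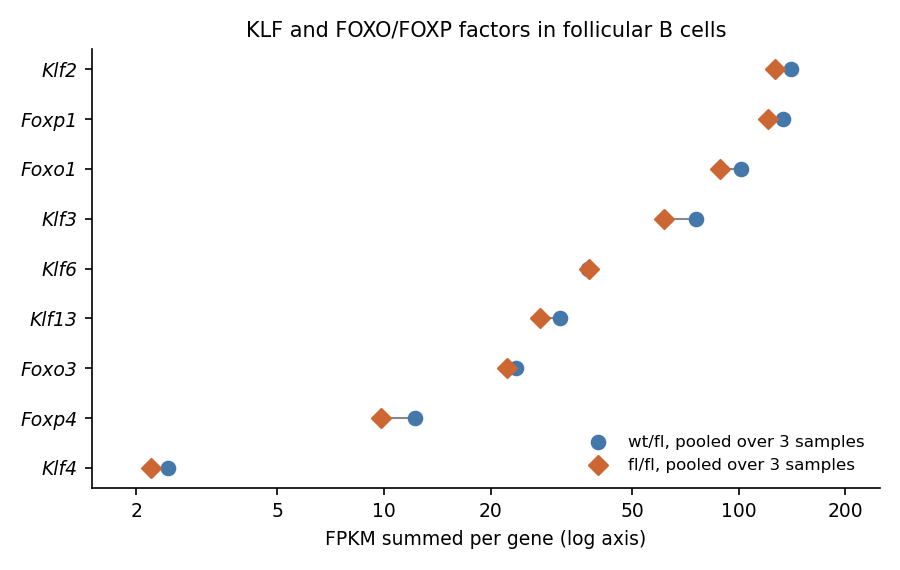
FPKM of the 9 KLF and FOXO/FOXP genes (log axis) in wt/fl (circles) and fl/fl (diamonds) follicular B cells, each a value pooled over 3 samples and without error bars. The levels run from 2.46 FPKM for Klf4 to 140 FPKM for Klf2 in wt/fl, and each gene except Klf6 has its fl/fl value to the left of its wt/fl value.

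The promoters of 4 of these genes are shown because they carry the boxes to which KLF factors themselves bind, at the most abundant KLF gene (Klf2), at the KLF gene with the lowest ratio (Klf3), at the gene with the smallest difference (Klf6) and at the most abundant FOXO gene (Foxo1). The sequences are from RefSeq on GRCm38.p6, 300 bases each, written 5′ to 3′ on the strand of the gene, and lie at chr8:72318812-72319111 (Klf2, plus strand), chr5:64803271-64803570 (Klf3, plus strand), chr13:5861239-5861538 (Klf6, plus strand) and chr3:52268087-52268386 (Foxo1, plus strand). Capitals mark each match on either strand to the CACCC box (CACCC) and the GC box (GGGCGG), and adjoining or overlapping matches run together.
Klf2: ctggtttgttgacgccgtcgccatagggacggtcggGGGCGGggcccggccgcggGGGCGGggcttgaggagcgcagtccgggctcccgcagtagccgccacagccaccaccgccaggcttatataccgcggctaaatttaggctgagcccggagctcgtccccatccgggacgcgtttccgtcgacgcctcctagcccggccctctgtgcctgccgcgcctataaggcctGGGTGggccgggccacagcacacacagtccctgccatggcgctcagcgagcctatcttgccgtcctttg
Klf3: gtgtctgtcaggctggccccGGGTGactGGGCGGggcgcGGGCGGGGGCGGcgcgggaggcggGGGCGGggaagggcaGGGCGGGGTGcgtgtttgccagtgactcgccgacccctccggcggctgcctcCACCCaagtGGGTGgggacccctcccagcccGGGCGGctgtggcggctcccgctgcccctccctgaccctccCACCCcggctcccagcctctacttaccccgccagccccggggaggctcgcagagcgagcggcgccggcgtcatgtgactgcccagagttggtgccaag
Klf6: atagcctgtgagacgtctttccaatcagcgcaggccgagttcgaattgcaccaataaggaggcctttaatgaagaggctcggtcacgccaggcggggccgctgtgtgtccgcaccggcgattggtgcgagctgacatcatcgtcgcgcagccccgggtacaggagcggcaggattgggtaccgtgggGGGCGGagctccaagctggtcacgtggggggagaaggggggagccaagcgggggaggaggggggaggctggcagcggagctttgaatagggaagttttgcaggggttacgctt
Foxo1: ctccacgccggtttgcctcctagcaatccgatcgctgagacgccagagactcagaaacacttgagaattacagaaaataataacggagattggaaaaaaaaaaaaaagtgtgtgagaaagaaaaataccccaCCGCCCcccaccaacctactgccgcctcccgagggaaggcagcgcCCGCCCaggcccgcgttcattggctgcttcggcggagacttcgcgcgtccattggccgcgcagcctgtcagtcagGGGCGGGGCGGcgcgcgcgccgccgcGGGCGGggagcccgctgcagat

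In these windows the Klf3 promoter held 5 CACCC and 6 GC boxes, 1 pair of which overlapped, the Klf2 promoter 1 and 2, the Klf6 promoter 0 and 1, and the Foxo1 promoter 0 and 5. RefSeq lists 11 promoters for the 9 genes, 3 of them for Foxp1. Of the 11, 10 held a GC box, beside 35.7% of all 32851 promoters, and 6 held a CACCC box, beside 57.5%. A forkhead core (TGTTTAC, 3.65% of all promoters) and a CRE (TGACGTCA, 1.79%), both searched on both strands, matched 0 of the 11. A match here is a match of letters only. The promoters of these genes were rich in G and C, with a median of 70.3% against 52.7% for all promoters.

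Klf2 (chromosome 8 from 74842960 to 74845553 on mm9, the build of the deposited positions) is the KLF factor that limits B cell expansion and directs homing through receptors such as S1pr1. Its level was 140 FPKM in wt/fl against 126 FPKM in fl/fl, a log2 ratio of −0.15. It was the most abundant of the 9 and stood at percentile 95.6 of all genes compared by mean level. Klf3 (chromosome 5 from 65194761 to 65221368) encodes a repressor that works with the CtBP corepressors. It was at 75.9 FPKM in wt/fl against 61.7 in fl/fl, a log2 ratio of −0.29. This was the lowest ratio among the KLF genes described, with 6.69% of all genes compared at or below it.

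Klf13 (chromosome 7 from 71031236 to 71083801), known as a late activator of chemokine transcription in T cells, had 31.3 FPKM in wt/fl against 27.5 in fl/fl, a log2 ratio of −0.18. Klf6 (chromosome 13 from 5860734 to 5869639), a factor induced early by growth and stress signals, had 37.7 and 37.9 FPKM, a log2 ratio of 0.0077. Of the genes compared, 3.52% had a log2 ratio as close to 0 or closer. Klf4 (chromosome 4 from 55540008 to 55545347), an antiproliferative factor best known from reprogramming to pluripotency, was the least abundant, with 2.46 FPKM in wt/fl against 2.20 in fl/fl, a log2 ratio of −0.11. In Klf4 the added FPKM weighs most, and with 0.1 added in place of 1 the log2 ratio was −0.15.

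Foxo1 (chromosome 3 from 52072258 to 52154031) drives Il7r and Rag expression in the B lineage. It stood at 102 FPKM in wt/fl against 88.5 in fl/fl, a log2 ratio of −0.20. Foxo3 (chromosome 10 from 41905591 to 41996548), known for arrest and death genes such as Bcl2l11, was at 23.6 and 22.2 FPKM, a log2 ratio of −0.087. Foxo1 was the more abundant in both genotypes.

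Foxp1 (chromosome 6 from 98875335 to 99385339) was at 133 FPKM in wt/fl against 121 in fl/fl, a log2 ratio of −0.14. It is made up of 3 entries, which the deposited IDs do not tie to named isoforms. The most abundant had 65.6 FPKM in wt/fl against 59.0 in fl/fl, the next 56.6 and 52.7, and the last 11.2 and 9.35. Their shares of Foxp1 were 49.2%, 42.5% and 8.37% in wt/fl and 48.7%, 43.5% and 7.73% in fl/fl, so the mix of coding sequences moved by at most 1.08 percentage points. Foxp4 (chromosome 17 from 48004081 to 48061581), its less abundant dimer partner, had 12.3 FPKM in wt/fl against 9.79 in fl/fl, a log2 ratio of −0.30, the lowest of the 9. Its 3 entries were at 5.74 and 4.9998 FPKM, at 3.69 and 2.99, and at 2.83 and 1.80. The last entry had the lowest log2 ratio of any single entry of these genes, −0.45, and its share of Foxp4 was 23.1% in wt/fl and 18.4% in fl/fl. With the most abundant entry alone, the log2 ratio of Foxp4 was −0.17.

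**Figure D2:**
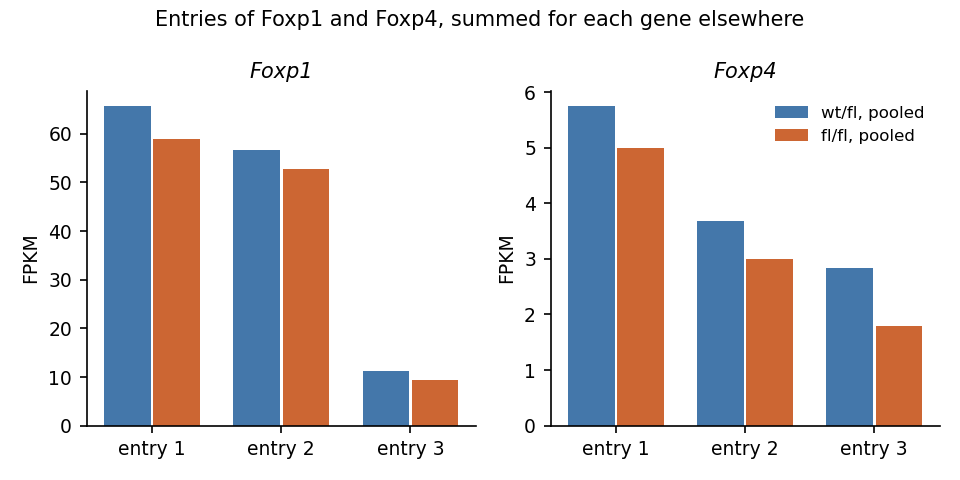
FPKM of the 3 entries of Foxp1 (left) and of Foxp4 (right) in wt/fl and fl/fl, bars from 0, each a pooled value without error bars. All 6 entries are lower in fl/fl, by −6.98% to −16.2% for Foxp1 and by −12.9% to −36.6% for Foxp4.

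The size of these differences can be set against all genes. The interquartile range of the 9866 log2 ratios was −0.11 to 0.11, and the central 95% between −0.47 and 0.40. All 9 genes lay inside the central 95%. Klf6 and Foxo3 also lay inside the interquartile range. This range mixes differences between the genotypes with the error of the pooled values, and it is not a spread between mice. Among the 7729 genes averaging 5 FPKM or more, where low values weigh less, 1.20% were past 1.5-fold, and 8 of the 9 genes (all but Klf4) belong to them.

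**Figure D3:**
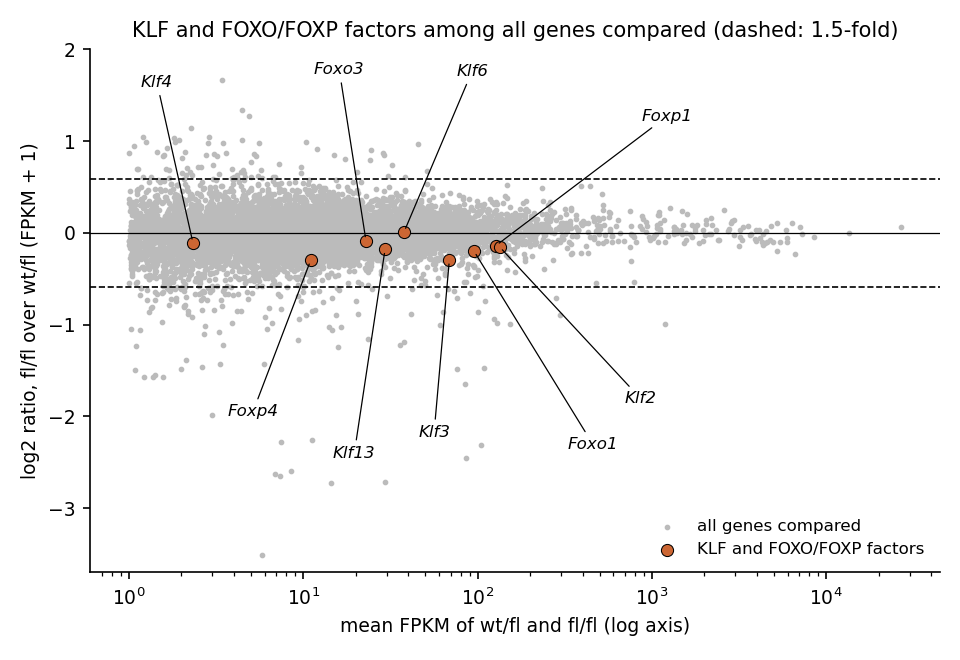
Log2 ratio of fl/fl over wt/fl (1 FPKM added) against the mean FPKM (log axis) for the 9866 genes compared (grey) and the 9 KLF and FOXO/FOXP genes (orange), with dashed lines at 1.5-fold. The 9 genes sit between −0.30 and 0.0077, inside the dashed lines, while 151 genes (1.53%) lie below the lower line and 78 (0.791%) above the upper one.

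The remaining family genes, listed by name, were used as a comparison. Of 21 other KLF and SP genes, 10 were compared, with a median log2 ratio of −0.036, 7 lower and 3 higher. Sp1 and Sp3, ubiquitous GC box binders, had 47.2 and 50.1 FPKM and 46.1 and 41.0 FPKM, wt/fl given first. Sp2 had 18.7 and 20.8 FPKM, Sp4 19.2 and 18.4, Klf7 16.3 and 16.2, and Klf11 5.90 and 5.87. Klf10 had 5.03 and 3.86 FPKM and Klf12 2.31 and 1.69 (both named after their values had been seen). Their log2 ratios, −0.312 and −0.301, were below the lowest of the 9 genes described, −0.298 for Foxp4. None of the 10 was past 1.5-fold. Summed, the 12 other KLF genes differed by −5.93% and the 9 SP genes by −0.530%.

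Of 35 other forkhead genes, 34 were in the table under the listed name and 9 were compared, with a median log2 ratio of −0.0045, 5 lower and 4 higher, and 0 past 1.5-fold. Foxn3 had 43.4 FPKM in wt/fl against 41.7 in fl/fl, Foxj3 28.3 and 27.2, Foxj2 26.7 and 28.8, and Foxk1 24.9 and 26.3. Foxn2 had 11.6 and 10.8 FPKM and Foxk2 10.8 and 10.8. Foxo4, the third FOXO gene of these cells, went the other way from Foxo1 and Foxo3, with 6.68 and 7.40 FPKM and a log2 ratio of 0.13.

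**Figure D4:**
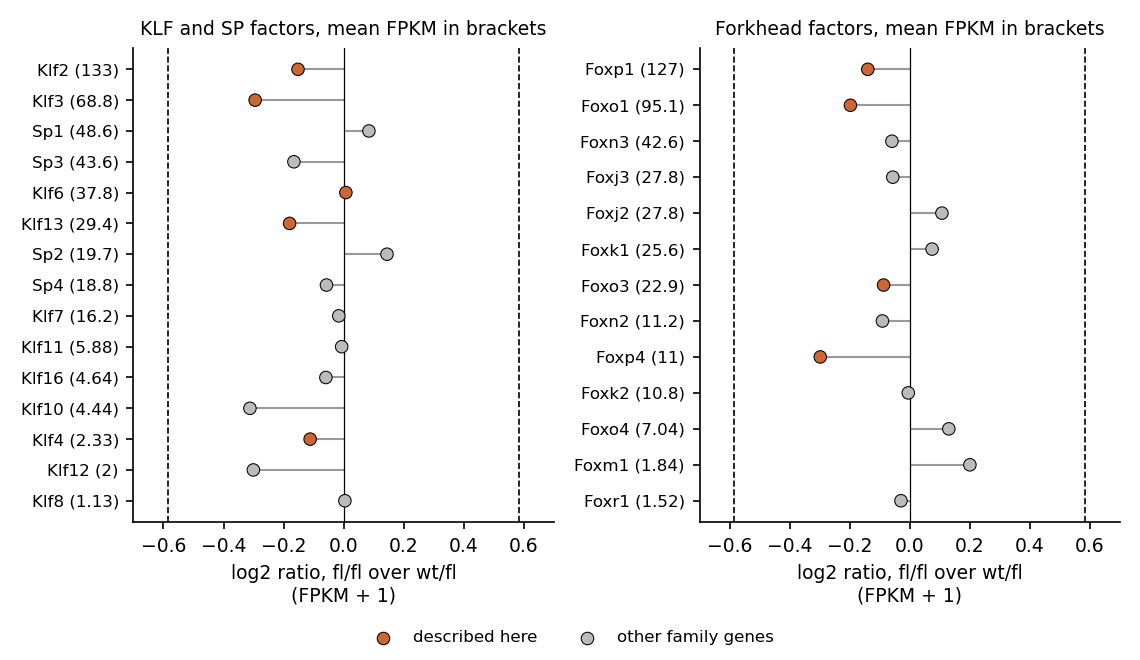
Log2 ratio of fl/fl over wt/fl (1 FPKM added) for each KLF and SP gene (left) and forkhead gene (right) averaging 1 FPKM or more, ordered by mean FPKM, with dashed lines at 1.5-fold. The 9 genes described (orange) reach from −0.30 to 0.0077, and the other family genes (grey) from −0.31 to 0.20.

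Genes that KLF2 is known to maintain, listed with other homing and surface receptors of B cells, went in both directions. Of 14 compared, 10 were lower and 4 higher in fl/fl, with a median log2 ratio of −0.069. Past 1.5-fold was 1 (7.14%), Cxcr4, beside 2.32% of all genes compared. This share is a description only, because earlier results of these data were known when the list was chosen. Cxcr4, the receptor for the retention chemokine CXCL12, had 113 FPKM in wt/fl against 39.7 in fl/fl, a log2 ratio of −1.49. S1pr1, the egress receptor, was at 98.0 and 75.2 FPKM, a log2 ratio of −0.38, and the integrin subunit gene Itgb7 was at 62.2 and 59.1 FPKM (these 2 were chosen after their values had been seen). Fcer2a, which encodes CD23, had 439 and 588 FPKM, a log2 ratio of 0.42, Cr2, which encodes CD21, had 177 and 198 FPKM, and Cxcr5 had 180 and 178 FPKM. CD23 and CD21 were used to sort the cells.

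For FOXO targets, 27 were compared, Klf2 itself among them, with 16 lower, 11 higher, a median log2 ratio of −0.072 and 0 past 1.5-fold. Txnip, an inhibitor of thioredoxin and of glucose uptake, was at 274 FPKM in wt/fl against 208 in fl/fl, a log2 ratio of −0.40. Blnk, the adaptor of the B cell receptor, was at 176 and 170 FPKM. Pik3ip1, a PI3K inhibitor named here after its value had been seen, had the lowest log2 ratio of this list, −0.57, with 28.2 and 18.7 FPKM. It was past 1.5-fold with 0.1 added in place of 1. Rag1 and Rag2, which FOXO1 activates in B cell precursors, had at most 0.122 FPKM in either genotype (also named after their values had been seen).

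Genes of PI3K, AKT and FOXO control, only some of which place FOXO factors in the nucleus or cytoplasm, had log2 ratios from −0.39 to 0.14. All 41 listed genes of PI3K, AKT and FOXO control were compared, and 24 were lower, 17 higher and 0 past 1.5-fold, with a median log2 ratio of −0.038. Ywhaz and Ywhah, which encode 14-3-3 proteins that hold FOXO factors in the cytoplasm, had 490 and 514 FPKM and 108 and 83.4 FPKM. Mef2c, a factor of the pathway that induces KLF2 and KLF4 in other cells, had 157 and 165 FPKM. The RNA levels do not show the location or phosphorylation of a FOXO protein.

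Some genes in a longer list of other quiescence and antiproliferative genes differed more than any of the 9 factors. Of 29 compared, 18 were lower and 11 higher, with a median log2 ratio of −0.081. Past 1.5-fold were 3 (10.3%), beside 2.32% of all genes compared. The list was chosen with earlier results of these data known, so this share is a description only. Tsc22d3, the glucocorticoid-induced leucine zipper gene, had 204 FPKM in wt/fl against 102 in fl/fl, a log2 ratio of −0.996. Zfp36l2, an mRNA decay factor of resting lymphocytes, had 172 and 86.9 FPKM, a log2 ratio of −0.98. Lef1, a factor of early B cells and T cells, had 3.44 and 7.75 FPKM, a log2 ratio of 0.98. The most abundant genes of the list were Pax5 with 357 and 373 FPKM, Btg1 with 369 and 315, Ikzf1 with 159 and 175, and Zfp36l1 with 155 and 156.

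Genes for growth and entry into the cell cycle, which quiescence factors hold down, had a median log2 ratio of 0.0096 over 24 genes, 13 higher and 11 lower, with 0 past 1.5-fold. Npm1 had 429 FPKM in wt/fl against 485 in fl/fl, Pcna 95.9 and 94.6, Ncl 80.6 and 87.4, and Cdk4 57.4 and 57.1. Myc, which KLF2 and FOXO factors oppose, had 45.7 and 46.4 FPKM (named after its value had been seen).

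**Figure D5:**
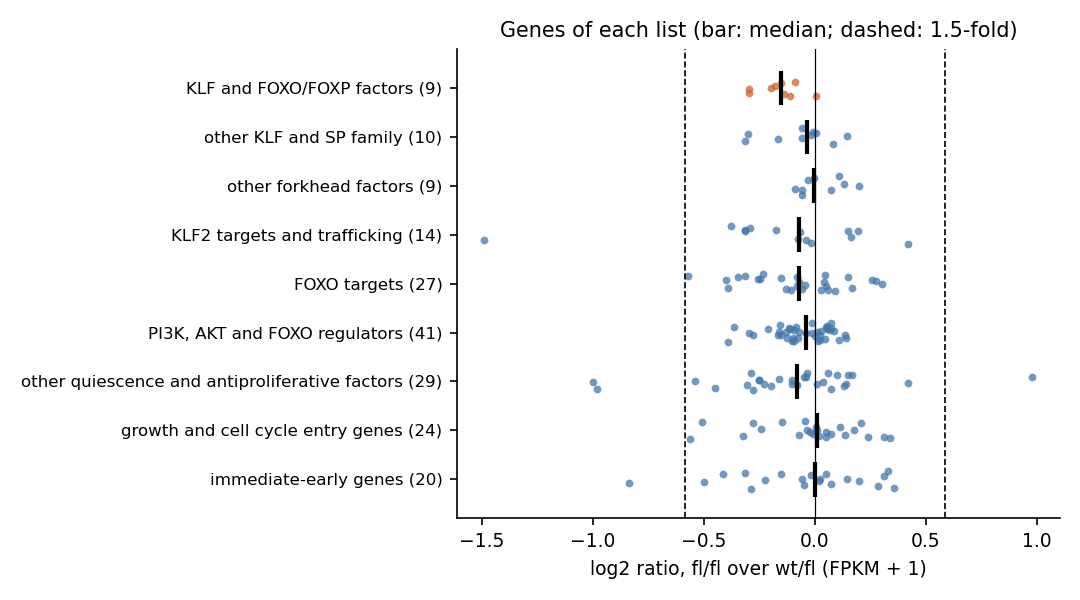
Log2 ratio of fl/fl over wt/fl (1 FPKM added) of each gene compared, by list, with the number of genes in brackets, a bar at the median and dashed lines at 1.5-fold. The 9 KLF and FOXO/FOXP genes (orange) have a median of −0.15, and the medians of the other lists lie between −0.081 and 0.0096.

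The deleted gene itself, Myh9, was at 50.6 FPKM in wt/fl against 21.1 in fl/fl. B cell markers were high, with Cd74, Cd79b, Cd79a and the other 7 listed all above 100 FPKM, and Cd93, which encodes the excluded AA4.1 antigen, at 3.28 and 4.23 FPKM. Of 6 follicular markers, 4 were higher and 2 lower in fl/fl, with a median log2 ratio of 0.16. Of 6 genes of the gated-out AA4.1 and marginal zone list, 3 were higher and 3 lower, and 2 were past 1.5-fold, Plac8 with 138 and 82.1 FPKM and Cd9 with 4.61 and 2.52 FPKM.

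Neutrophil markers differed between the genotypes. Of 14 listed, 13 were in the table and 9 compared, all 9 lower in fl/fl and 7 past 1.5-fold. The list summed to 387 FPKM in wt/fl against 73.3 in fl/fl, most of it S100a9 (175 and 34.5 FPKM) and S100a8 (145 and 25.8 FPKM). Among granule genes, Camp had 15.3 and 1.70 FPKM, Ngp 13.4 and 1.29, and Lcn2 12.6 and 1.21. The granule genes Elane and Mpo were at 0.119 and 0.0916 FPKM in wt/fl and listed at 0 in fl/fl. These granule genes were named with their values known. Cxcr2 (5.99 and 4.96 FPKM) and Csf3r (2.32 and 1.51 FPKM), named in the same way, were lower but not past 1.5-fold. Their log2 ratios were −0.23 and −0.41. Macrophage and monocyte markers summed to 91.1 and 61.5 FPKM, most of it Lyz2 with 72.6 and 44.9. T cell markers summed to 26.9 and 25.2 FPKM, endothelial and platelet markers to 73.2 and 82.8 (most of it Pecam1, which B cells also express), and the erythroid list, globin entries under shared names left out, to 65.1 and 19.8. Klf2, Klf4, Klf6 and Foxo3 are also active in myeloid cells, and the part of such cells in the values above was not tested. In bulk RNA, fewer cells of a type and less RNA per cell cannot be told apart.

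Immediate-early genes, which Klf2, Klf4 and Klf6 accompany when tissue is dissociated, had a median log2 ratio of 0.00096 over 20 genes, 10 higher and 10 lower. This even split depends on the filter. Of the 27 listed, those averaging below 1 FPKM were all lower in fl/fl, and with no filter the median was −0.049. Of the 20, 1 (5%, beside 2.32% of all genes compared) was past 1.5-fold. It was Dusp1, a MAP kinase phosphatase gene, with 15.3 and 8.12 FPKM. Earlier results of these data were known when this list was chosen too, so its share is a description only. The most abundant were Zfp36 with 336 and 348 FPKM, Ier5 with 162 and 204, Dusp2 with 101 and 97.2, and Btg2 with 73.7 and 60.3.

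Transcript length and exon number varied among the 9 genes. In GENCODE M21 on GRCm38 their longest coding transcripts had a median of 5221 bases and 4 exons, against 3044 bases and 9 exons for the 9305 genes compared that have a coding transcript there. The range was 1847 bases (Klf2) to 8665 bases (Foxo1), and 2 exons (Klf13) to 19 exons (Foxp1), with 17 exons in Foxp4. Of the 9, 5 (Klf3, Klf13, Foxo1, Foxo3 and Foxp1) were among the 2326 longest genes, from 4549 bases up. Of these, 57.5% had the lower level in fl/fl and the median log2 ratio was −0.026, against 43.1% and 0.034 for the 2327 shortest, where Klf2 lies with 1847 bases. The part of transcript length in the values of these genes was not tested. Exons of Klf3 and Foxo1 overlap an annotated gene on the opposite strand (Gm20033 and Gm20402) and exons of Foxp1 overlap Gm20696 and Gm49348 on its own strand, so where fragments were counted without regard to strand or shared between genes those reads cannot be assigned with certainty.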

How the data were processed

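RNA of sorted follicular B cells (B220+AA4.1-CD23+CD21lo) was amplified with Ovation RNA-Seq V2 and made into libraries with TruSeq Nano DNA, for 3 wt/fl and 3 fl/fl samples. Bowtie, TopHat and Cufflinks, without versions, and the builds mm10 and GRCm38 are listed in the submitters' processing notes, but the positions in the deposited table are on mm9, as the position of Myh9 shows, and were not converted. The deposited values are FPKM, which the authors pooled over the 3 samples of a genotype, with 25017 entries. The depth per sample is unknown. The table also holds the authors' fold changes, test statistics, p-values and q-values, which were not used.

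FPKM was summed per gene name with pandas 2.3.3 in Python 3.11.15, after leaving out 44 entries whose symbol had turned into a date. Genes averaging 1 FPKM or more were compared on the log2(FPKM + 1) scale, and 1.5-fold on this scale was the threshold for a call. With 1 pooled value per genotype no test across samples was made, and the labels do not say whether each sample is 1 mouse or a pool. On simulated data, the ratio and the fold call were checked after upper quartile and quantile scaling only. Unscaled values and the other computations were not checked in this way. Named were the 9 genes, family genes averaging 5 FPKM or more, the 4 most abundant genes of each other list and any gene past 1.5-fold. Some lists share genes, such as Ccr7. Values of some genes that this rule names are not reported here. The genes and the 8 lists and 8 marker lists were chosen with earlier results of these data known. Alternatives were other pseudocounts, filters, thresholds and scalings and single entries. Protein sequences were not used here.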

Additional observations from a re-analysis of the deposited data

How the results depend on the processing

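The values above have no error, so the alternatives show only how far the processing moves them. For Klf2, Klf3, Klf4, Klf13, Foxo1, Foxo3, Foxp1 and Foxp4 the log2 ratio was below 0 with every pseudocount and scaling run. Klf6 stayed between 0.0017 and 0.011. A filter cannot change the ratio of a single gene. The choice of entry can change only the ratios of Foxp1 and Foxp4, and both stayed below 0. The median of the 9 genes lay between −0.17 and −0.15, and with 1 FPKM added 0 of them were past a ratio of 5 to 4 (0.321928 on the log2 scale). With 0.1 added Foxp4, at −0.32201, was just past it. Klf4 ranged from −0.15 to −0.073 and drops out with a minimum mean of 5 FPKM. Foxp4 ranged from −0.32 to −0.17. The scalings moved the median of all genes by less than 0.01.

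Counts past 1.5-fold in the lists moved as follows. With 0.1 added, FOXO targets had 1 (Pik3ip1), other quiescence genes 4 in place of 3 (Slfn1 added) and growth and cell cycle entry genes 1 (Mki67), the last also with 0.5 added. With the most abundant entry alone, FOXO targets had 1 (Bcl2l11) and PI3K, AKT and FOXO regulators 1 (Hdac7). At that lower threshold, 3 KLF2 target and trafficking genes, 4 FOXO targets, 2 PI3K, AKT and FOXO regulators, 6 quiescence genes, 3 growth genes and 5 immediate-early genes passed. At 2-fold, 0 quiescence and 0 immediate-early genes passed. These follow from the threshold, the pseudocount and the entries chosen. The medians of the immediate-early, growth and other forkhead lists changed sign under some alternatives, all within 0.05 of 0.

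No paired analysis was possible because the table holds 1 pooled value per genotype, and for the same reason no replicate was left out.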
